A study of Mus musculus with 24 samples.

Results

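The region described here is the distal reading frame of Selenop (ENSMUSG00000064373.12) in the mouse. It begins 816 nucleotides after the first nucleotide of the start codon, which is nucleotide 155 of the mRNA, and holds 106 codons. The rule takes each nucleotide as one region, which gives 318 of the 2096 positions in the deposited tables. Codons are counted here from the start of the distal frame, so that it runs from codon 1 to codon 106, and no genome coordinates are used. The members were chosen by ribosome footprint counts of these same libraries. The start codon came from the initiation peak, the end from the last covered codon and the beginning from the stretch in which the SECIS1 deletion had lost density. Distal density in the SECIS1 deletion against its wild type is therefore given as a description, with no test. The share of counts in the first codon position, which the choice did not use, is the measure tested in that line.

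The series asks how RNA structures in the 3′UTR of Selenop affect its translation in mouse liver, with ribosome profiling and RNA-seq. The ribosome profiling groups were 2 libraries of mice with a genomic deletion of SECIS1, 3 wild type (WT) libraries of that line, 3 libraries of mice with a genomic deletion of SECIS2 and 3 WT libraries of that line. All mice were C57Bl6 on standard chow. The labels used here give neither their age nor whether each library is a separate animal, so p-values measure the spread between libraries, which may be technical. The lines carry library numbers with different prefixes, so line and library series cannot be told apart, and each deletion was set against the WT of its own line. In 1 more library the title gives no group and the heading of its column reads SECIS1 deletion. It entered no comparison and is described after the report. The tissue is bulk liver, in which fewer cells of a type and less RNA per cell cannot be told apart. The tables hold Selenop alone, so the tissue label was not checked against markers.

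Selenop encodes selenoprotein P, which hepatocytes secrete into plasma and which carries selenium to other tissues. Its mRNA holds UGA codons that ribosomes read as selenocysteine. One lies early in the frame, and the others lie in the part that encodes the selenium-rich C-terminal domain. A SECIS element is a stem-loop in the 3′UTR that recruits, through the protein SECISBP2, the elongation factor that brings selenocysteyl-tRNA to the ribosome. Where a UGA is not read as selenocysteine, it can act as a stop codon. The later UGA codons of the distal frame and its stop codon were not located here.

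An A-site count says how many footprints had the A site of their ribosome placed at a nucleotide. Total counts on Selenop were 22077 to 23331 in the SECIS1 deletion, 34061 to 66070 in SECIS1 WT, 22041 to 27231 in the SECIS2 deletion and 17585 to 40721 in SECIS2 WT libraries. The distal frame held 668 and 631 counts in the SECIS1 deletion libraries and 6020, 4737 and 3547 in SECIS1 WT. It held 3102, 3293 and 2609 counts in the SECIS2 deletion libraries and 2885, 1559 and 4058 in SECIS2 WT. Counts were scaled to the middle frame, the 142 codons (426 nucleotides) just before the distal frame, which held 3350 to 13461 counts per grouped library.

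Footprints were spread unevenly along the distal frame in WT liver. Of its 318 positions, 297 had at least 1 count in a grouped library, 21 had none in any, and 105 had a count in all 6 WT libraries. The first window, codons 1 to 10, held 45.6% ± 4.94 (SD, n = 6) of the distal counts of WT libraries. Codon 5 alone held 20.7% ± 3.49 (SD, n = 6), with 1049, 1056 and 776 counts in SECIS1 WT and 443, 372 and 952 in SECIS2 WT. The next codons by share were 4 with 9.70% ± 3.19, 68 with 7.59% ± 3.30, 3 with 5.67% ± 1.41 and 41 with 3.48% ± 1.74 (SD, n = 6 each). Codons 2 to 6 thus formed one broad peak in every WT library, with 37.6% to 51.8% of distal counts. In contrast, the stretch from codon 11 to codon 37 held 3.08% to 4.24% of distal counts in WT libraries. A further group of covered codons lay from 38 to 46, single high codons at 68 and 74, and a last group at codons 101 to 106. These stretches were picked out after their values were seen.

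The limits of the region were chosen from these counts, so the codons beside them are given as a description. The codon just before the region had 14, 8 and 7 counts in SECIS1 WT and 30, 3 and 4 in SECIS2 WT. Codon 1, just inside, had 33, 43 and 44 in SECIS1 WT and 43, 21 and 64 in SECIS2 WT. At the other end, codon 106 had 55, 47 and 19 counts in SECIS1 WT and 11, 4 and 29 in SECIS2 WT. The codon just after it had 0, 1 and 0 in SECIS1 WT and 0, 0 and 1 in SECIS2 WT. In all 6 WT libraries codon 1 thus held more counts than the codon before it. An earlier codon of the middle frame had 28, 32 and 24 counts in SECIS1 WT and 47, 15 and 40 in SECIS2 WT. Counts near those of codon 1 thus also occurred before the limit. Coverage all but stopped after codon 106, the last covered codon by which the end was set. The 6 codons after the region together held 1 to 6 counts in WT libraries.

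**Figure D1:**
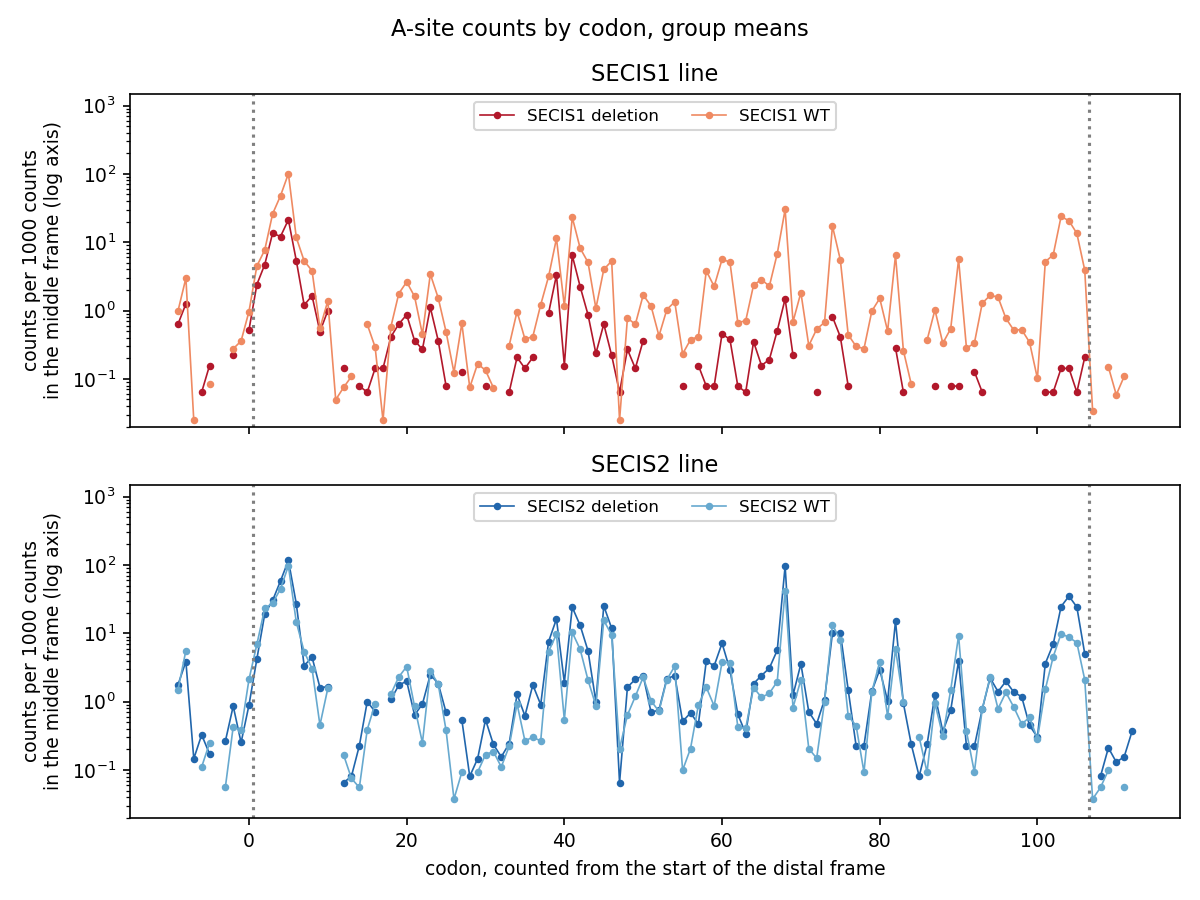
Mean A-site counts per codon, scaled to 1000 counts in the middle frame (log axis), against codons from the start of the distal frame, for the SECIS1 line (top) and the SECIS2 line (bottom); dotted lines mark the limits of the distal frame, and codons with a mean of 0 are not drawn. In the SECIS1 line the deletion falls further below WT along the frame, to 0.142 against 23.8 at codon 103. In the SECIS2 line the curves lie closer, with the deletion above WT at codons 103 to 105 and also at some earlier codons, such as 59 and 68.

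In the SECIS1 deletion, ribosome density in the distal frame was 18.9% of that in its WT. Density in the distal frame over density in the middle frame was 0.114 and 0.133 in the SECIS1 deletion libraries, against 0.599, 0.644 and 0.714 in SECIS1 WT. Both deletion libraries lay far below all WT libraries, with means of 0.124 ± 0.0129 (SD, n = 2) and 0.652 ± 0.0580 (SD, n = 3), a 5.28-fold decrease and a log2 change of -2.40. Scaled instead to codons 7 to 53 after the start codon, in the first part of the whole reading frame (called the early frame here), the ratio was 0.0516 ± 0.00191 (SD, n = 2) in the deletion and 0.251 ± 0.0465 (SD, n = 3) in WT, or 20.5% of WT. Per RNA-seq read, by the authors' ratio summed over the distal frame, the deletion stood at 0.00963 ± 0.000274 (SD, n = 2) and WT at 0.0427 ± 0.00713 (SD, n = 3), or 22.5% of WT. In the middle frame the same ratio was 0.105 ± 0.00795 (SD, n = 2) in the deletion and 0.0874 ± 0.00720 (SD, n = 3) in WT, so by this ratio the deletion was lower in the distal and not in the middle frame.

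**Figure D2:**
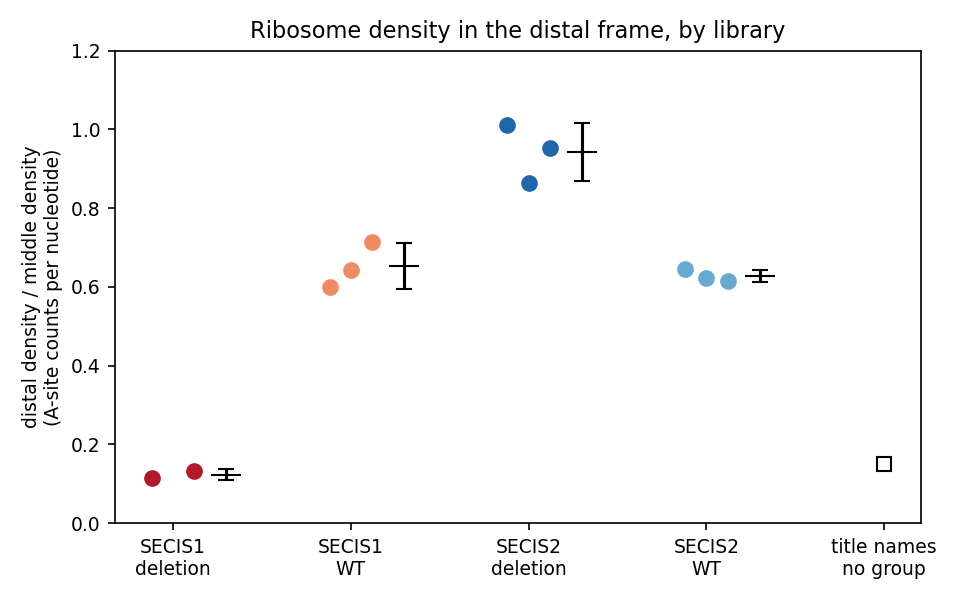
Distal over middle density (A-site counts per nucleotide in each) in every library, with group means and SD as bars beside the points; the open square is the library whose title names no group. The SECIS1 deletion libraries lie at 0.114 and 0.133 and the SECIS2 deletion libraries at 0.865 to 1.01, with both WT groups between 0.599 and 0.714.

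Fewer positions carried footprints. In the SECIS1 deletion 95 and 108 of the 318 positions had a count, against 254, 212 and 194 in SECIS1 WT. Both deletion libraries shared 63 covered positions, and at 178 positions neither had a count. At codon level 33 of the 106 distal codons had no count in either deletion library, and 25 of these were among the 56 codons from codon 51 on. Total depth differed too, since the SECIS1 deletion libraries held fewer counts on Selenop than the WT libraries, and its part in the number of covered positions was not tested.

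The share of WT density that was left was lower in each later stretch of the distal frame of the SECIS1 deletion. Codons 1 to 50 kept 29.0% of the WT density, codons 51 to 100 kept 5.33% and codons 101 to 106 kept 0.930%. In the first of these stretches the deletion libraries had 611 and 587 counts, against 3528, 2920 and 2135 in SECIS1 WT. In the second they had 50 and 41 counts, against 1656, 1146 and 812. In the last they had 7 and 3 counts, against 836, 671 and 600. By pooled counts per middle count, the last stretch was 99.8-fold lower, with a 95% exact counting interval of 54.1 to 208. The stretches were chosen after the values were seen, and the interval covers counting error only.

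Within the first stretch the windows of 10 codons kept 22.9% to 40.4% of the WT mean. Codons 1 to 10 kept 28.4% and 32.5% of the WT mean in the deletion libraries, codons 21 to 30 kept 28.1% and 27.3%, codons 31 to 40 kept 26.2% and 26.4%, and codons 41 to 50 kept 17.9% and 28.0%. Codons 11 to 20 kept the most, 37.4% and 43.4%, in a window of few counts where SECIS1 WT had 0.615 ± 0.0933 (SD, n = 3) counts per codon per 1000 middle counts. Codons 51 to 60 kept 0.768% and 9.43%, codons 61 to 70 kept 6.94% and 5.87%, and codons 91 to 100 kept 5.19% and 0%. Every window from codon 51 on thus kept a smaller share than every window before it, and of these later windows the deletion libraries lay farthest apart, in percent of WT, at codons 51 to 60. In all 11 windows both deletion libraries lay below all 3 WT libraries. Of the windows tested outside the distal frame, this held only at codons 11 to 20 of the whole reading frame. Since the SECIS1 comparison was used in choosing the region, nothing is read from that number of windows.

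**Figure D3:**
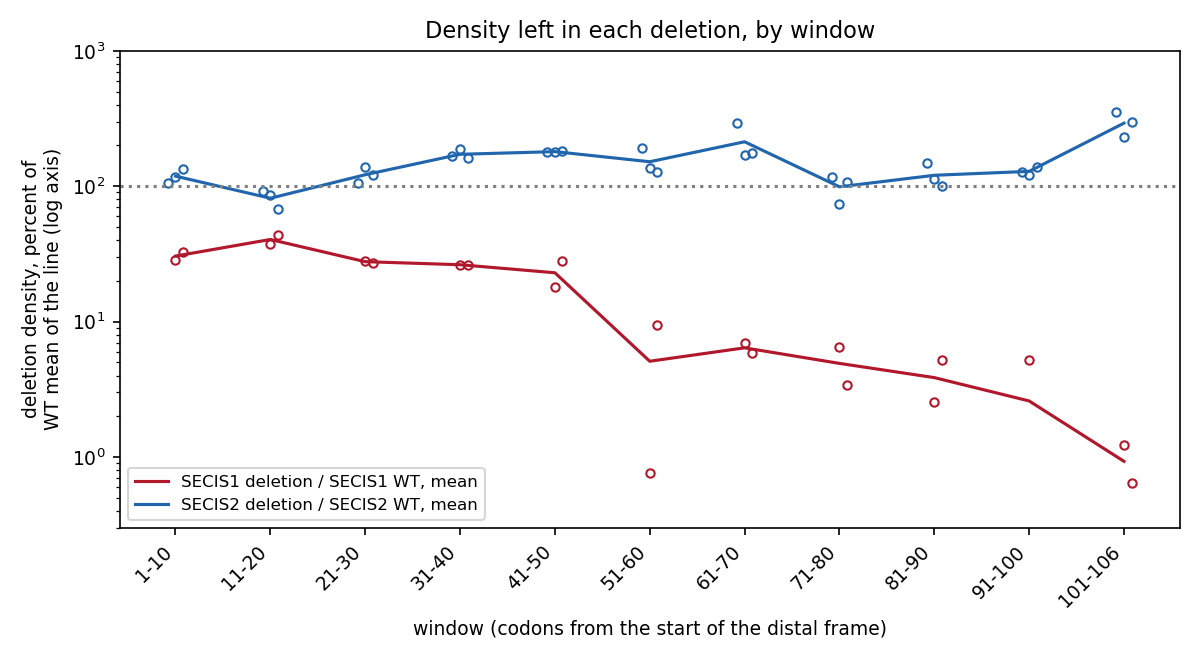
Density in each window of the distal frame as a percentage of the mean of the line's own WT libraries (log axis), with a line for the deletion mean and an open point for each deletion library; 100 is the WT level. The SECIS1 deletion runs from 30.5% at codons 1 to 10 to 0.930% at codons 101 to 106, with 1 library at 0 in codons 91 to 100 and not drawn there, while the SECIS2 deletion lies between 81.5% and 292%.

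Single codons varied within the windows. Codon 3, on the rising side of the first peak, had 104 and 88 counts in the SECIS1 deletion and 376, 295 and 134 in SECIS1 WT, or 52.1% of WT after scaling. Codon 4 had 106 and 68 counts in the deletion and 688, 435 and 320 in WT, or 25.4%. Codon 5 had 145 and 153 counts in the deletion and 1049, 1056 and 776 in WT, or 21.2%. The peak was thus cut unevenly, and its summit kept a smaller share than its rising side. Over codons 1 to 3 the deletion kept 54.1% of WT density, beside 58.2% over the last 14 codons of the middle frame. Over codons 4 to 42 it kept 26.1%, a mean weighted to the high codons 4 and 5. Within that stretch codons 7, 8, 9 and 10 kept 22.7%, 43.0%, 89.2% and 72.0%, the last 2 on few counts. Over the rest of the middle frame it stood at 102% of WT on this scale. Those codons hold most of the counts used as scale, so the scaling itself sets that value near WT and nothing is read from it.

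The next group of covered codons kept unequal shares. Codon 41 had 39 and 50 counts in the SECIS1 deletion and 258, 228 and 181 in SECIS1 WT, or 27.7% of WT, and codon 42 kept 27.4%. Codon 45 had 5 and 4 counts in the deletion and 37, 36 and 37 in WT, or 15.9%. Codon 46 had 1 and 2 counts in the deletion and 49, 62 and 40 in WT, or 4.16%, a 23.8-fold difference by pooled counts with a 95% exact counting interval of 8.0 to 117. The next codons kept larger shares, on few counts. Codon 50 had 2 and 3 counts in the deletion and 12, 16 and 17 in WT, or 21.5%. Codons 48 and 49 kept 34.8% and 22.7%, with 3 and 1 counts and 1 and 1 counts in the deletion. The 95% exact counting intervals were 0.930 to 10.8-fold at codon 48, 0.955 to 35.9-fold at codon 49 and 1.70 to 13.8-fold at codon 50. Each overlapped that of codon 46. Codon 68, the largest peak of the second stretch, had 17 and 5 counts in the deletion and 376, 364 and 171 in WT, or 4.90%. Codon 74 kept 4.70% and codon 82 kept 4.43%, while codon 90 had 0 and 1 counts in the deletion and 49, 48 and 55 in WT, or 1.40%.

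The end of the frame was nearly empty in the SECIS1 deletion. Codon 103 had 1 and 1 counts in the deletion and 249, 200 and 217 in WT. Codon 104 had 1 and 1 counts in the deletion and 255, 206 and 146 in WT, and codon 105 had 1 and 0 in the deletion and 141, 130 and 111 in WT. Codon 106, the last covered, had 2 and 1 counts in the deletion and 55, 47 and 19 in WT, or 5.29%. With so few counts codon 104 was 144-fold lower by pooled counts, with a 95% exact counting interval from 39.6 to 1189. Of the 106 distal codons 55 passed the filter on low counts, which all 4 groups fed, and 51 did not, with at most 24 counts in a library. In 53 of the 55 both SECIS1 deletion libraries lay below all SECIS1 WT libraries, and in 0 above. Over all 251 frame codons that passed, 26.3% were lower in this way and 7.57% higher. Since the SECIS1 comparison was used in choosing the region, nothing is read from that share.

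The SECIS2 deletion, by contrast, had more density in the distal frame relative to the middle frame than its WT. The ratio was 1.01, 0.865 and 0.952 in the SECIS2 deletion libraries, against 0.645, 0.623 and 0.614 in SECIS2 WT. All 3 deletion libraries lay above all 3 WT libraries, with means of 0.943 ± 0.0741 (SD, n = 3) and 0.628 ± 0.0155 (SD, n = 3). The log2 change was 0.59 (SE 0.10), a 1.5-fold increase (edgeR quasi-likelihood test, adjusted p = 0.00136). Other parts rose more on this scale, by 1.53 (SE 0.39) before the start codon and by 1.24 (SE 0.09) at codons 1 to 53 of the whole reading frame. Codons 54 to 130 of the whole frame were at -0.08 (SE 0.24) and the part after the distal frame at -0.65 (SE 0.84). The direction of the distal change belongs to the middle frame as scale, and turned with another. Scaled to the early frame, distal density was 0.239 ± 0.0221 (SD, n = 3) in the deletion and 0.328 ± 0.0357 (SD, n = 3) in WT, a log2 change of -0.46 that did not pass (edgeR adjusted p = 0.0687). Scaled to all counts on the mRNA the change was 0.32 and did not pass either (edgeR adjusted p = 0.584).

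The authors' ratio shows both parts on a scale outside the frame. Summed over the distal frame it was 0.0270, 0.0249 and 0.0327 in the SECIS2 deletion libraries, against 0.0361, 0.0403 and 0.0316 in SECIS2 WT. The groups overlapped, at 78.3% of WT on average (exact two-sided permutation p = 0.2, Benjamini-Hochberg adjusted over 5 such tests 0.333; 0.1 is the smallest p that 3 against 3 allow). Over the middle frame the ratio averaged 0.0401 ± 0.00534 (SD, n = 3) in the deletion and 0.0768 ± 0.00901 (SD, n = 3) in WT, or 52.1%. Per RNA-seq read, then, the distal frame of the SECIS2 deletion stood nearer to its WT level than the middle frame did.

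Along the distal frame the SECIS2 deletion was higher at 4 of 11 windows on the scale of the middle frame, and lower at 0 by edgeR. DESeq2 and an unadjusted p under 0.05 in edgeR also gave 0 lower. Over all 24 windows tested 41.7% were higher and 12.5% lower, so the count of higher windows is near the background. Codons 101 to 106 rose most, by 1.54 (SE 0.28, edgeR adjusted p = 0.000262), with 492, 399 and 371 counts in the deletion and 224, 93 and 330 in WT. Codons 61 to 70 rose by 1.09 (SE 0.32, adjusted p = 0.00880), codons 41 to 50 by 0.84 (SE 0.33, adjusted p = 0.0386) and codons 31 to 40 by 0.76 (SE 0.28, adjusted p = 0.0304), all by edgeR. Codons 1 to 10, which hold the large peak, were at 0.25 (SE 0.20), codons 11 to 20 at -0.29 (SE 0.24) and codons 71 to 80 at -0.01 (SE 0.30), none past the threshold. The remaining windows were at 0.25 to 0.60, of which codons 51 to 60 passed without SECIS2 WT replicate 1 (0.76). The rise at the end of the frame was past the threshold with any library left out, at 1.38 to 1.69. At codons 31 to 40 the call was lost without SECIS2 deletion replicate 1 (0.78), 2 (0.69) or 3 (0.81) or SECIS2 WT replicate 1 (0.59) or 2 (0.61). At codons 41 to 50 it was lost without SECIS1 WT replicate 2 (0.84), SECIS2 deletion replicate 1 (0.84), 2 (0.84) or 3 (0.83), or SECIS2 WT replicate 1 (0.56) or 2 (0.74), and at codons 61 to 70 without SECIS2 deletion replicate 1 (0.78). The number of higher windows was 1 without SECIS2 deletion replicate 1, and 2 without SECIS2 deletion replicate 2 or 3 or SECIS2 WT replicate 2. Scaled to the early frame, 0 windows were higher and 4 lower. On that scale 95 of all 251 frame codons tested were lower, so nothing is read from these 4 windows.

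**Figure D4:**
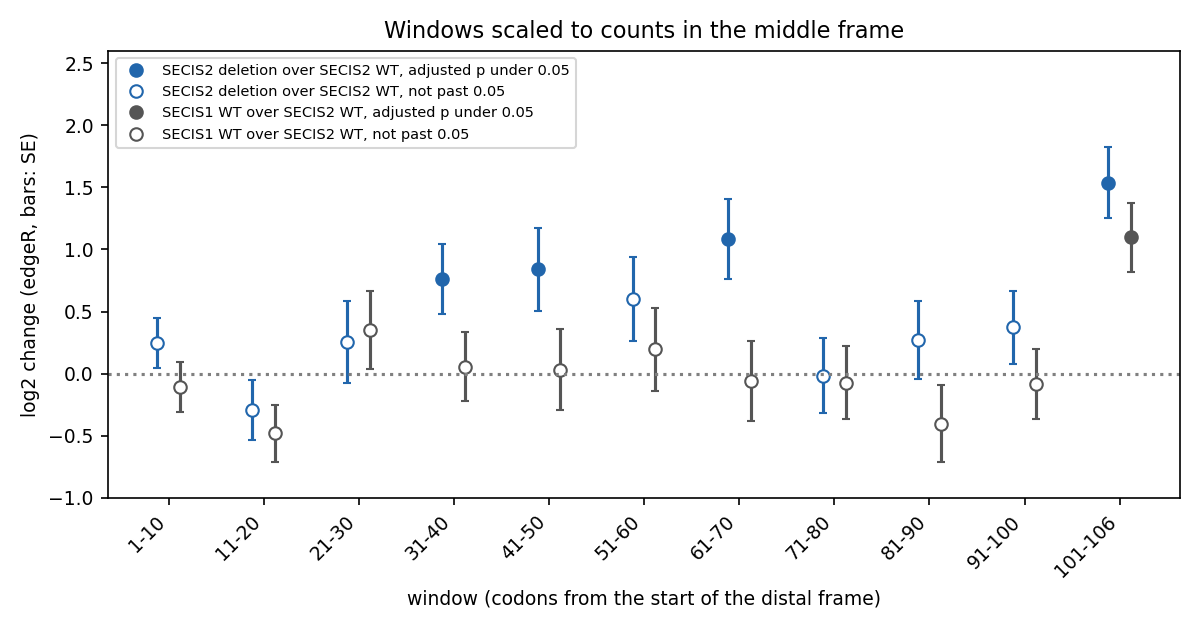
Log2 change of each distal window with its SE (edgeR, scaled to counts in the middle frame) for the SECIS2 deletion over SECIS2 WT and for SECIS1 WT over SECIS2 WT; filled points have an adjusted p under 0.05. The SECIS2 deletion is called at 4 windows, highest at codons 101 to 106 with 1.54, where SECIS1 WT also lies above SECIS2 WT by 1.10.

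At single codons 5 of the 55 tested distal codons rose in the SECIS2 deletion and 0 fell by edgeR. DESeq2 also gave 0 that fell, and 1 fell at an unadjusted p under 0.05. Over all 251 frame codons tested 11.2% rose and 2.39% fell, so the share that rose is near the background. The median log2 change was 0.51 over the distal codons and 0.18 over all codons. Codon 104 rose by 1.96 (SE 0.38, edgeR adjusted p = 0.00536), with 163, 133 and 145 counts in the deletion and 31, 21 and 132 in WT. Codon 105 rose by 1.71 (SE 0.34, edgeR adjusted p = 0.00589), with 119, 106 and 85 counts in the deletion and 54, 18 and 67 in WT. Codon 103 rose by 1.32 (SE 0.33, edgeR adjusted p = 0.0160), with 136, 102 and 77 counts in the deletion and 63, 31 and 87 in WT. Codons 103 to 105 thus rose side by side. The others were codon 59 at 1.76 (SE 0.55, edgeR adjusted p = 0.0457), with 12, 17 and 14 counts in the deletion and 5, 1 and 13 in WT, and codon 43 at 1.37 (SE 0.38, edgeR adjusted p = 0.0292). The great peak at codon 5, with 388, 607 and 503 counts in the deletion and 443, 372 and 952 in WT, was at 0.26 (SE 0.28, adjusted p = 0.564), and codon 68, with 555, 402 and 280 in the deletion and 405, 93 and 276 in WT, at 1.19 (SE 0.39, adjusted p = 0.0590). Codon 68 passed without SECIS2 WT replicate 1 (1.71), and codon 41, at 1.19, without SECIS2 WT replicate 3 (1.99). Codon 103 lost its call without SECIS2 deletion replicate 1 (1.05) or SECIS2 WT replicate 2 (1.28). Codon 43 lost it without SECIS2 deletion replicate 1 (1.43) or 2 (1.22) or SECIS2 WT replicate 2 (1.16) or 3 (1.32). Codon 59 lost it without SECIS1 deletion replicate 2 or 3, SECIS1 WT replicate 2, any SECIS2 deletion replicate or SECIS2 WT replicate 1 or 2, at 1.49 to 1.85. The number of codons that rose was 2 without SECIS2 deletion replicate 1 or SECIS2 WT replicate 2, 3 without SECIS2 deletion replicate 2, and 10, with 1 that fell, without SECIS2 WT replicate 3. With the replicate number as a block, which treats same-numbered libraries of a line as pairs, it was 12. Codons 68 (1.26, edgeR adjusted p = 0.00676) and 41 (1.39, edgeR adjusted p = 0.0322) were then among those that passed. Scaled to the early frame, 0 distal codons rose and 10 fell, beside 3 that rose and 95 that fell of all 251. With TMM 2 distal codons rose and 1 fell, beside 16 that rose and 10 that fell of all 251. The median over all codons was -0.90 on the early scale and -0.10 with TMM. Nothing is read from these distal counts.

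The end of the frame also differed between the WT libraries of both lines. Codons 101 to 106 held 12.2 ± 2.47 (SD, n = 3) counts per codon per 1000 middle counts in SECIS1 WT and 5.69 ± 0.921 (SD, n = 3) in SECIS2 WT, 1.10 higher on the log2 scale (SE 0.28, adjusted p = 0.0115 by edgeR). The SECIS2 deletion, with 16.6 ± 3.47 (SD, n = 3), was the highest of the 4 groups and the SECIS1 deletion, with 0.114 ± 0.050 (SD, n = 2), the lowest. SECIS2 WT was thus the lower WT group at the place where the SECIS2 deletion rose most. In the difference between the WT groups, line and library series cannot be told apart. The SECIS2 deletion and SECIS2 WT share both, and the part of the low SECIS2 WT level in the rise of the SECIS2 deletion was not tested. The WT difference did not pass without SECIS1 WT replicate 3 (0.92) or SECIS2 WT replicate 2 (0.97). It was the 1 distal window of 11 called higher in SECIS1 WT, with 0 called lower by edgeR, beside 8.33% of all 24 windows called higher and 0.0% lower. DESeq2 and an unadjusted p under 0.05 also gave 0 lower. Over the whole distal frame the WT groups differed by 0.06 (SE 0.09, edgeR adjusted p = 0.817), with 0.652 ± 0.0580 (SD, n = 3) in SECIS1 WT and 0.628 ± 0.0155 (SD, n = 3) in SECIS2 WT.

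Single codons that differed between the WT groups were few. SECIS1 WT was higher at codons 101, by 1.74 (SE 0.45, edgeR adjusted p = 0.0423), and 103, by 1.26 (SE 0.32, edgeR adjusted p = 0.0423). It was lower at codon 2, by -1.59 (SE 0.34, edgeR adjusted p = 0.0155), with 125, 74 and 42 counts in SECIS1 WT and 189, 73 and 148 in SECIS2 WT. It was also lower at codon 45, by -1.99 (SE 0.47, edgeR adjusted p = 0.0306), with 37, 36 and 37 counts in SECIS1 WT and 32, 51 and 229 in SECIS2 WT. Codon 45 was at -1.35 without SECIS2 WT replicate 3. With 1 library left out at a time codon 101 ranged from 1.63 to 1.98, codon 103 from 0.97 to 1.42, codon 2 from -1.79 to -1.30 and codon 45 from -2.41 to -1.35. Among runs without a SECIS1 WT or SECIS2 library, codon 101 kept its call only without SECIS2 deletion replicate 3 or SECIS2 WT replicate 1. Codon 103 lost it without SECIS1 WT replicate 2 or 3, SECIS2 deletion replicate 2 or 3 or SECIS2 WT replicate 2. Codon 45 lost it without SECIS1 WT replicate 1 or 2, SECIS2 deletion replicate 2 or SECIS2 WT replicate 2 or 3, and codon 2 without SECIS1 WT replicate 2 or 3. These were 2 higher and 2 lower of 55 distal codons, beside 2.39% higher and 1.2% lower of all 251. The number higher was 0 without SECIS1 deletion replicate 2 or 3, SECIS1 WT replicate 2 or 3, SECIS2 deletion replicate 2 or SECIS2 WT replicate 2. It was 1 without SECIS1 WT replicate 1 or SECIS2 deletion replicate 1 or 3, and 4 without SECIS2 WT replicate 1. The number lower was 0 without SECIS1 WT replicate 2, and 1 without SECIS1 deletion replicate 2 or 3, SECIS1 WT replicate 1 or 3, SECIS2 deletion replicate 2 or SECIS2 WT replicate 2.

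Within the distal frame, footprints lay nearer its beginning in the SECIS1 deletion than in SECIS1 WT, and nearer its end in the SECIS2 deletion than in SECIS2 WT. In the SECIS1 deletion 50% of distal counts were reached at codon 5 in both libraries, against codons 41, 39 and 41 in SECIS1 WT. In the SECIS2 deletion they were reached at codons 57, 41 and 41, against codons 39, 5 and 39 in SECIS2 WT (exact two-sided permutation p = 0.1, the smallest possible, adjusted 0.25). The mean shift was -35.3 codons in the SECIS1 line and 18.7 in the SECIS2 line. The codon numbers jump between peaks, so the size of the shift follows the peaks' places. Without SECIS2 WT replicate 2, the library at codon 5, the shift in that line was 7.33 (exact two-sided permutation p = 0.5), and with the last 5 codons of the frame left out the shift in the SECIS1 line was -10.3. Codons 101 to 106 held 1.05% and 0.475% of distal counts in the SECIS1 deletion, against 13.9%, 14.2% and 16.9% in SECIS1 WT. They held 15.9%, 12.1% and 14.2% in the SECIS2 deletion, against 7.76%, 5.97% and 8.13% in SECIS2 WT (exact two-sided permutation p = 0.1, adjusted 0.25). These shares do not depend on the scale outside the distal frame. In the SECIS2 line the groups did not overlap, and the mean share was 6.78 percentage points higher in the deletion.

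**Figure D5:**
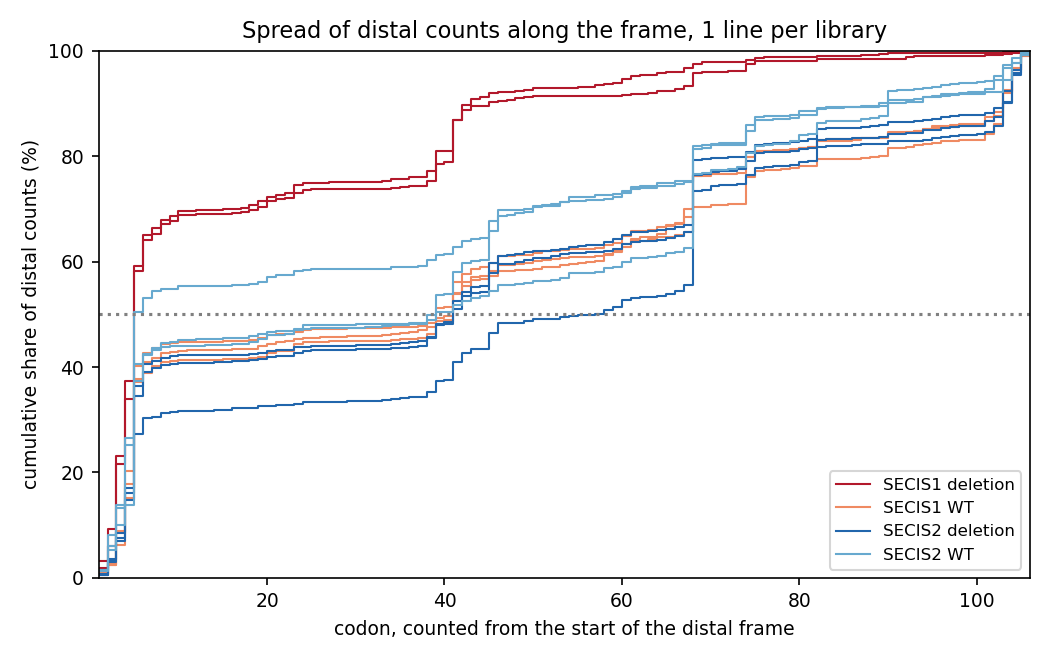
Cumulative share of distal counts (%) against codon number, with 1 line per library in the colour of its group and a dotted line at 50%. Both SECIS1 deletion lines cross 50% at codon 5, the SECIS2 deletion lines at codons 41 to 57, and the WT lines at codons 5 to 41.

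Footprints in the distal frame kept the 3-nucleotide pattern of translating ribosomes in all groups, a measure that the choice of the region did not use. The first codon position held 61.8% and 61.6% of distal counts in the SECIS1 deletion, against 56.7%, 61.8% and 62.3% in SECIS1 WT (exact two-sided permutation p = 0.9, adjusted 0.9). For the SECIS1 deletion libraries the 95% exact intervals were 58.0% to 65.5% and 57.7% to 65.5%. In the SECIS2 deletion the share was 62.0%, 61.5% and 61.3%, against 60.2%, 64.8% and 55.1% in SECIS2 WT (exact two-sided permutation p = 0.7, adjusted 0.875). The deletion libraries lay within the range of WT libraries in both lines. In all 11 grouped libraries the share was higher in the distal than in the middle frame, by 3.11 ± 2.20 (SD, n = 2) percentage points in the SECIS1 deletion, 3.72 ± 1.21 (SD, n = 3) in SECIS1 WT, 4.46 ± 1.80 (SD, n = 3) in the SECIS2 deletion and 4.67 ± 4.85 (SD, n = 3) in SECIS2 WT.

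The relative heights of distal codons were alike between libraries of a group, but less so within SECIS2 WT. Over the 55 distal codons that passed the filter, Pearson's r of log2 scaled counts was 0.911 between the SECIS1 deletion libraries, 0.819 to 0.943 within SECIS1 WT, 0.915 to 0.927 within the SECIS2 deletion and 0.724 to 0.749 within SECIS2 WT. Between groups r was 0.594 to 0.698 for the SECIS1 deletion with SECIS1 WT and 0.693 to 0.878 for the SECIS2 deletion with SECIS2 WT. SECIS2 deletion and SECIS1 WT libraries, which come from different lines, gave 0.820 to 0.910, and the WT groups of both lines 0.586 to 0.833. SECIS2 WT libraries were thus less alike among themselves than SECIS2 deletion and SECIS1 WT libraries were with each other. These are correlations across codons, which are not independent replicates and share depth and sequence, and are given as a description.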

How the data were processed

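The authors deposited A-site counts per nucleotide of the Selenop mRNA for 12 libraries. Footprints of about 30 nt left by RNase I were sequenced, per the labels' protocols. The submitters' processing notes name Bowtie and mm9. No source used here gives the Bowtie version, the A-site rule or the transcript. Per the file headers, the authors' second table is a ratio: depth-scaled footprint counts over depth-scaled Selenop RNA-seq reads. Within a library it equals the counts times a constant.

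Here, counts were summed by codon, window and region and tested with edgeR 4.0.16 (R 4.3.3, quasi-likelihood, filterByExpr for codons), with middle-frame counts as library size and a group-means model of 11 libraries, which leaves 7 degrees of freedom. Adjustment was by Benjamini-Hochberg over 251 codons, 24 windows outside the scale, or 5 regions in both tested comparisons. Other values had exact permutation tests. Alternatives were other scales, DESeq2 1.42.0, TMM, fewer groups, a replicate block, no filter and each library left out. The fits were tested on simulated data. Intervals are 95% exact ones; they hold counting error alone, as the tables show no molecular identifiers. Replicates of a group differed by more than sampling noise over the frame (chi-square per degree of freedom at least 2.38). Deviations from group means over 251 codons correlated by 0.437, 0.120 and 0.175 between same-numbered SECIS2 libraries. Differently numbered SECIS2 pairs gave -0.305 to 0.152, and SECIS2 deletion replicate 2 was closer to WT replicate 3 (0.152) than to WT replicate 2. Same-numbered SECIS1 libraries gave -0.161 and -0.0363. There the deviations of the 2 deletion libraries mirror each other, which cannot show pairing. Whether the replicate numbers pair the libraries is thus not known.

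Named codons are the 5 with the highest WT share, those beside the limits, and in tested comparisons up to 5 higher and 5 lower past an adjusted p of 0.05; others named were chosen after their values were seen. The region, stretches and lists were chosen with earlier results of these data known. Segments between selenocysteine codons were not tested, since those codons were not located here.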

Additional observations from a re-analysis of the deposited data

Results flagged for a closer look

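Several values moved one way in every SECIS1 deletion library and the other way in every SECIS2 deletion library, each set against the WT of its own line. None of these differences between the deletions was tested, because the SECIS1 comparison was used in choosing the region. Distal over middle density differed from WT by -0.529 for deletion of SECIS1 and by 0.316 for deletion of SECIS2. The opposite direction depended on the scale. With the early frame as scale the SECIS2 deletion stood at -0.46 (log2, edgeR adjusted p = 0.0687). By the authors' ratio it stood at 78.3% of WT, so both values were below WT like the SECIS1 deletion. The share of distal counts at codons 101 to 106 differed from WT by -14.2 percentage points for deletion of SECIS1 and by 6.78 for deletion of SECIS2. The SECIS2 deletion, at 14.1% ± 1.88 (SD, n = 3), was near SECIS1 WT, at 15.0% ± 1.67 (SD, n = 3). SECIS2 WT was lower than both, at 7.29% ± 1.16 (SD, n = 3). The codon at which 50% of distal counts were reached differed by -35.3 codons for deletion of SECIS1 and by 18.7 for deletion of SECIS2. The SECIS2 value was 7.33 without SECIS2 WT replicate 2, and the SECIS1 value was -10.3 with the last 5 codons left out. The mean codon was 46.3 in the SECIS2 deletion, 40.3 in SECIS1 WT and 27.7 in SECIS2 WT.

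In 5 of 11 windows all SECIS1 deletion libraries lay below, and all SECIS2 deletion libraries above, every WT library of their own line in density scaled to the middle frame. Outside the distal frame, all SECIS2 deletion libraries also lay above all SECIS2 WT libraries in every window of codons 1 to 60 of the whole reading frame. At codons 11 to 20 of the whole frame both SECIS1 deletion libraries lay below their WT as well. Nothing is read from the number of windows. The values that follow are log2 ratios of mean scaled density in the 5 windows of the distal frame. At codons 31 to 40 the value was -1.93 for deletion of SECIS1 and 0.78 for deletion of SECIS2. At codons 41 to 50 it was -2.12 for deletion of SECIS1 and 0.85 for deletion of SECIS2, and at codons 51 to 60 it was -4.29 for deletion of SECIS1 and 0.60 for deletion of SECIS2. At codons 61 to 70 it was -3.97 for deletion of SECIS1 and 1.09 for deletion of SECIS2. At codons 101 to 106 it was -6.75 for deletion of SECIS1 and 1.55 for deletion of SECIS2. The SECIS2 values are relative to the middle frame, which stood at 52.1% of WT in that deletion by the authors' ratio. With the early frame as scale they turned to -0.25, -0.17 and -0.45 at codons 31 to 40, 41 to 50 and 51 to 60, and were 0.025 at codons 61 to 70 and 0.50 at codons 101 to 106, none past the threshold (edgeR).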

How the results depend on the processing

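The SECIS2 results depended most on the scale. With codons 7 to 53 after the start codon as scale, distal density in the SECIS2 deletion stood at -0.46 (log2), with 0 windows higher and 4 lower and 0 codons higher and 10 lower, and with all counts on the mRNA it was 0.32 and not past the threshold, with 2 windows and 1 codon higher. With only the compared groups 2 windows and 3 codons were higher, with TMM 1 window and 2 codons were higher and 1 window and 1 codon lower, and with DESeq2 size factors 2 codons were higher. Over all 251 codons, 3 were higher and 95 lower with the early scale, and 9 higher and 4 lower with all counts. They were 16 higher and 10 lower with TMM, and 16 higher and 7 lower with DESeq2 size factors. With the replicate number as a block, which treats same-numbered libraries of a line as pairs, 12 codons were higher. Distal density was then 0.58 and past the threshold, and the call of no window changed. For SECIS1 WT over SECIS2 WT, distal density was not past the threshold in any alternative run, and its sign turned with the early scale (-0.39), all counts (-0.048), the 5 highest positions left out (-0.032) and the last 5 codons left out (-0.058). In that comparison 0 windows were higher with the early scale or all counts, 1 was lower with the early scale, and 0 codons were higher with the early scale, all counts, only the compared groups, TMM, DESeq2 size factors or no filter; 1 codon was lower with all counts and 0 with only the compared groups. The causes were not tested.

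Single SECIS2 values whose sign turned were as follows. With the early scale, the windows at codons 1 to 10, 21 to 30, 31 to 40, 41 to 50, 51 to 60, 81 to 90 and 91 to 100 stood at -0.80, -0.75, -0.25, -0.17, -0.45, -0.79 and -0.66, and codons 3, 4 and 5 at -0.91, -0.69 and -0.77. With all counts, codons 1 to 10 and 21 to 30 stood at -0.0027 and -0.11, and codons 3 and 5 at -0.10 and -0.050. With TMM the windows at codons 1 to 10, 21 to 30, 81 to 90 and 91 to 100 stood at -0.32, -0.33, -0.29 and -0.18, and codons 3 and 5 at -0.16 and -0.041. With DESeq2 size factors codon 3 stood at -0.11, and with a scale that begins earlier in the frame codons 71 to 80 stood at 0.025.

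The SECIS1 density change was -1.71 with all counts and -2.19 with the last 5 codons left out, where its median codon differed by -10.3 and its frame share by -0.119 percentage points. With 1 library left out at a time, the log2 change of distal density was -2.51 to -2.30 for the SECIS1 deletion, 0.53 to 0.65 for the SECIS2 deletion and -0.014 to 0.11 for the WT lines. In the SECIS2 comparison 1 to 4 windows and 2 to 10 codons were higher, and 0 to 1 codons lower. In the WT comparison 0 to 1 windows and 0 to 4 codons were higher, and 0 to 3 codons lower. The frame share differed by -0.336 to 2.47 percentage points in the SECIS1 line and by -0.901 to 3.93 in the SECIS2 line. Windows with a sign that turned were codons 21 to 30 (-0.050 to 0.73) and 71 to 80 (-0.16 to 0.16), and codon 3 ranged from -0.086 to 0.38. Depth limits the SECIS1 deletion most, with 631 and 668 distal counts. Segments between selenocysteine codons were not run.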

Other observations

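The library whose title names no group, and whose column heading reads SECIS1 deletion, held 27317 counts on Selenop, 9653 in the middle frame and 1086 in the distal frame. Its distal over middle density was 0.151. As a share of the mean of the SECIS1 WT libraries, its density was 34.1% at codons 1 to 10, 36.9% at codons 41 to 50, 10.6% at codons 51 to 60, 13.6% at codons 61 to 70, 5.22% at codons 71 to 80 and 1.55% at codons 101 to 106. It had 209 counts at codon 5, 84 at codon 41, 43 at codon 68 and 11 at codons 101 to 106. It reached 50% of its distal counts at codon 5, and its first codon position held 58.7% of them (95% exact interval 55.8% to 61.7%). Over the 55 distal codons that passed the filter, Pearson's r of its scaled log2 counts was 0.869 to 0.875 with the SECIS1 deletion libraries, 0.591 to 0.660 with SECIS1 WT, 0.549 to 0.676 with the SECIS2 deletion and 0.511 to 0.693 with SECIS2 WT.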
